A study of Mus musculus with 12 samples.

Results

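The AP-1 and BATF family of basic leucine zipper (bZIP) transcription factors was followed through 3 genotypes of activated mouse CD4 T cells, each with and without retinoic acid (RA). The 10 genes, chosen by symbol from the 52635 in the expression table, were the FOS family (Fos, Fosb, Fosl1, Fosl2), the JUN family (Jun, Junb, Jund), Batf, Batf3 and Atf3. Of these, 9 reached 1 FPKM (fragments scaled by exon length and by library depth, so a level per length) in at least 2 of the 12 libraries, as 11922 genes did in all. Fosb did not, and Batf3 did so only through the 2 RARα TG libraries with RA.

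RNA was taken from CD4 T cells that had been naive and over 95% pure per the labels, from mice of the inbred strain C57BL/6. All cells were activated for 24 h with antibodies to CD3 and CD28 in charcoal-stripped serum, which holds little retinoid, together with 20 ng/mL IL-6, 10 ng/mL of each of IL-23, IL-21 and IL-1β, 5 ng/mL of each of TGFβ-1 and TNFα, and 10 μg/mL of each of anti-IL-4 and anti-IFNγ, a mixture of the kind used to drive Th17 cells. The 6 groups, of 2 libraries each, were cells of wild type (WT) mice, of RARα KO mice and of RARα TG mice, each with 0 or 10 nM RA for those 24 h. RARα, the product of Rara, is a nuclear receptor through which RA acts. The sources used here give neither the knockout allele, the promoter of the transgene nor the age or sex of the mice. They also do not say whether replicate libraries came from different mice. The p-values thus reflect no more than the spread between libraries, which may be technical where replicates share mice.

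AP-1 is a dimer of a JUN protein with a FOS, ATF or second JUN protein, and it carries signals from the T cell receptor and MAP kinases to activation genes. BATF and BATF3 lack the activation domain of FOS proteins, pair with JUN proteins and, beside IRF4 or IRF8, bind composite DNA sites; BATF is needed for Th17 differentiation. Ligand-bound retinoid receptors are known both to switch on genes from their own DNA sites and to interfere with AP-1 activity.

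Rara was 12.3 to 18.9 FPKM in the 4 WT libraries, 16.8 to 19.5 in the 4 libraries labelled KO and 63.3 to 126 in the 4 labelled TG. In TG it was 72.8 and 63.3 without RA and 126 and 119 with RA, whereas in WT and KO the libraries with RA were the lower. The TG groups thus differed in Rara as well as in RA. The TG label is thus matched by the transcript, whereas Rara was not lower in the libraries labelled KO, and whether its reads cover the deleted part is not known; KO below means that label. Depth, inferred from the FPKM values, was 16289969 to 25534588 reads a library. All 8 T cell markers were present in every library, with a sum of 996 to 1482 FPKM, against 1.55 to 4.18 for the pair of CD8 genes. Markers of B cells summed to 29.4 to 127 FPKM and those of dendritic cells and class II to 23.7 to 165; replicate 2 of WT stood apart, with 101 and 127 for B cells and 157 and 165 for the latter without and with RA, against 29.4 and 56.0, and 23.7 and 26.1, in replicate 1. Xist, transcribed in female cells, was high in the 4 libraries labelled KO and in replicate 2 of TG at each dose, and low in the other libraries. By this marker replicates 1 and 2 of TG differed in sex, so they did not come from the same mouse. Genotype and sex therefore cannot be told apart between KO and WT.

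The 4 members whose group means ranged over at least 1 on the log2(FPKM + 1) scale were Jun, Fosl2, Atf3 and Batf3. The 250 bases before their RefSeq starts (GRCm38.p6) are printed here. Jun and Atf3, which differ in direction with RA, each hold a searched motif letter for letter, while Fosl2 and Batf3 hold none of those searched. Capitals mark a JUN and ATF2 site (TGACATCA) in Jun and the ACGTCA core of the cyclic AMP response element in Atf3. The regions lie at chr4:95052223-95052472 (minus strand) for Jun, chr5:32136222-32136471 (plus) for Fosl2, chr1:191183334-191183583 (minus) for Atf3 and chr1:191098164-191098413 (plus) for Batf3. The start used for Atf3 lies 34706 bases inside the gene as GENCODE draws it. Those used for Fosl2 and Batf3 lie 671 and 567 bases inside, and that for Jun is the same in both.
Jun: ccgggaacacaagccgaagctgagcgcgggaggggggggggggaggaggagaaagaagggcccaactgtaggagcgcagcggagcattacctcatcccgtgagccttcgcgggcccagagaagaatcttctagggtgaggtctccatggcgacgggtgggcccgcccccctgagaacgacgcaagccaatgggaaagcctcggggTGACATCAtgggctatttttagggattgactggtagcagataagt
Fosl2: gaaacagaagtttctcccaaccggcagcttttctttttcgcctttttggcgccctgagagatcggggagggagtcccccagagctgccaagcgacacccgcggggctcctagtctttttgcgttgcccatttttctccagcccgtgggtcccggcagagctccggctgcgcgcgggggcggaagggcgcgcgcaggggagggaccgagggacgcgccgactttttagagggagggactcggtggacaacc
Atf3: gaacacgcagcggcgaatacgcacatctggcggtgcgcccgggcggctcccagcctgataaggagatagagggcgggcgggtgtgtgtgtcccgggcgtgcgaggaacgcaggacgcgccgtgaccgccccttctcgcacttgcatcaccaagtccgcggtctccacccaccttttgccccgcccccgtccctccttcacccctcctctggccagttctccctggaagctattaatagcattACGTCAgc
Batf3: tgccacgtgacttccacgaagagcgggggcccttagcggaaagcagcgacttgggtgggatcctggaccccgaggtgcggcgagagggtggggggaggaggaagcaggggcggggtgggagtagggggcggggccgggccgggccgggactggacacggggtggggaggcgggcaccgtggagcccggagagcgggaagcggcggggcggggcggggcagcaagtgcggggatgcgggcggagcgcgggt
The search ran on both strands of the promoters of 9 members, all but Fosl1. The RefSeq start of Jund lies 1210 bases before the gene as GENCODE draws it. Its window, and those of Fosl2, Batf3 and Atf3, thus do not adjoin the GENCODE start, which limits what a missing motif there means. Jun was the only member with TGACATCA, 45 to 38 bases before its start; 2.93% of 32851 promoters of this length hold it. ACGTCA stood 8 to 3 bases before the start of Atf3, 66 to 61 before that of Fos and 98 to 93 before that of Batf, against 6.47% of all promoters. The AP-1 site TGANTCA (6.75% of promoters), the full element TGACGTCA, which contains ACGTCA (1.55%), and the AP-1 and IRF composites TTTCNNNNTGANTCA (0.0974%) and GAAATGANTCA (0.1005%), which contain TGANTCA, were in 0 of the 9. For retinoid receptors the letters AGNTCA were used as the half-site, where N is any base. Half-sites that begin with GG were not searched, so these counts do not cover all retinoid receptor sites. The repeats AGNTCANNNNNAGNTCA (0.198%), AGNTCANNAGNTCA (0.0852%) and AGNTCANAGNTCA (0.183%) were also in 0 of 9. AGNTCA itself (41.3%) was in Fosb alone, as AGCTCA. These are matches of letters in a short window, not measured binding.

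By level, Junb and Batf led the family in every group. Junb, an AP-1 subunit induced by T cell activation, was 127 to 186 FPKM over the 12 libraries, and Batf was 105 to 142. Together they made up 62.6 to 77.5% of the summed FPKM of the 10 members. Jund followed in every group, at 26.9 to 72.5 FPKM. Fosl2 stood above Jun in WT and TG without RA and below it in the 4 other groups, and Jund and Jun overlapped in WT with RA. Fosl1 was 4.57 to 9.61 FPKM, Atf3 0.848 to 4.76 and Fos 1.68 to 3.44, so Fosl2 was the most abundant FOS family transcript throughout. At the bottom, Batf3 and Fosb were at 0.139 to 3.55 and 0.0730 to 0.801 FPKM. Neighbours in the order also overlapped for Atf3 and Fos in WT without RA, Fosl1 and Atf3 in TG without RA, Batf3 and Fos in TG with RA, and Batf3 and Fosb in WT with RA and in both KO groups.

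**Figure D1:**
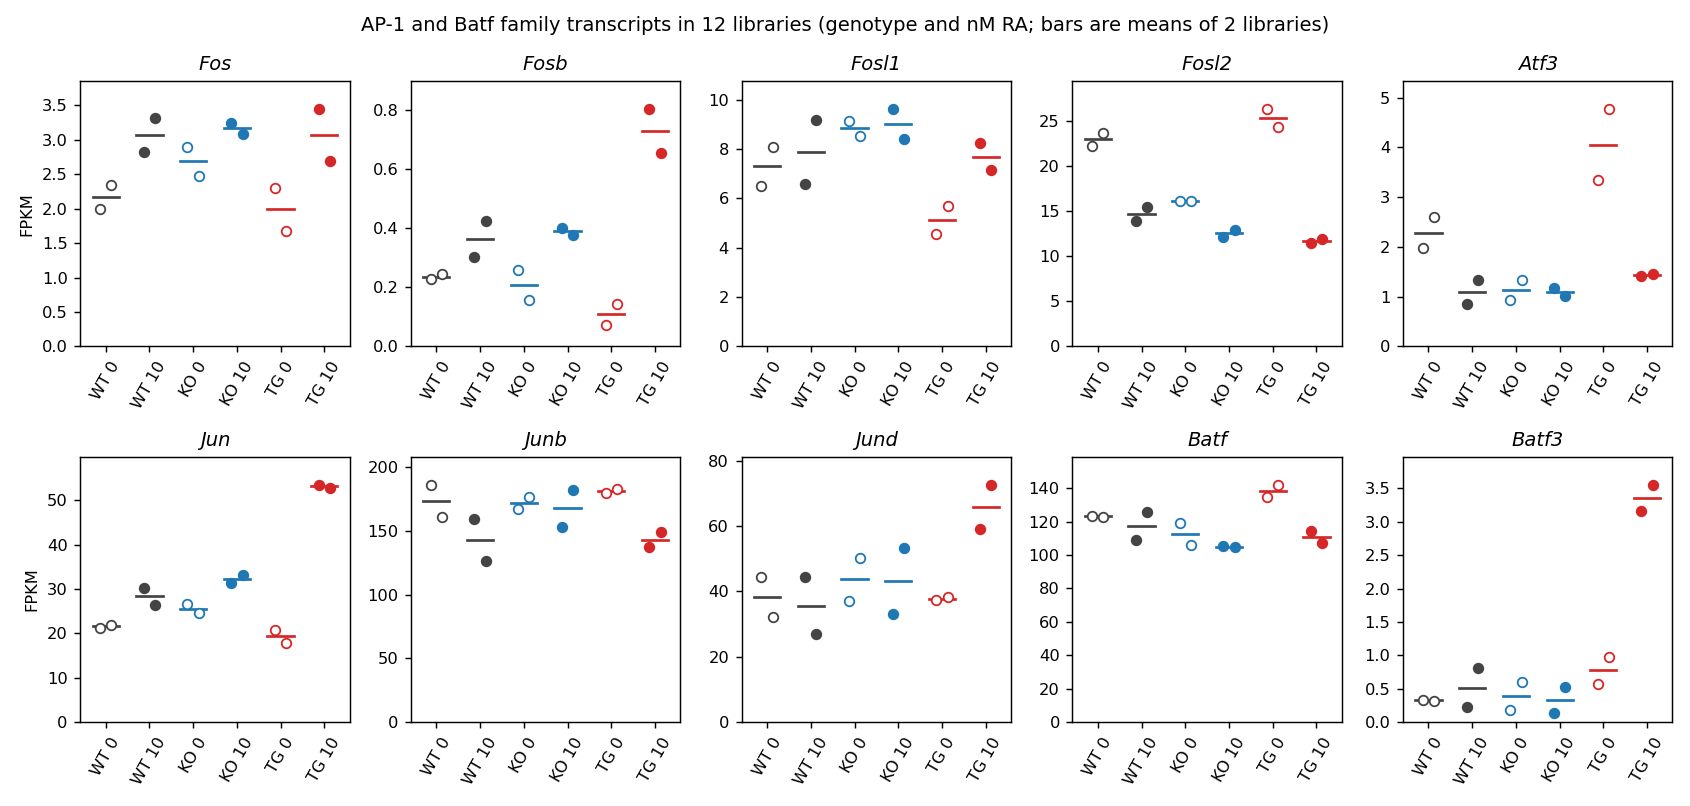
FPKM of the 10 family members in each library, by genotype and nM RA; each panel has its own linear axis from 0, points are libraries, open without RA and filled with RA, and bars are means of 2 libraries. Jun in TG with RA sits at 52.9 to 53.4 FPKM, above the 18.0 to 33.2 of all other libraries.

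RA changed 2 of the 9 tested members in WT cells and 7 of 9 in TG cells, and none passed the test in the libraries labelled KO. Here and below a gene is said to have changed when its adjusted p in limma, fitted over all 11922 genes, was under 0.05. Of all genes tested, 10.1% changed with RA in WT (6.67% rose and 3.47% fell), 0.143% in KO and 39.1% in TG (19.7% and 19.4%). The 2 of 9 in WT were Fosl2, which fell, and Jun, which rose. In TG, Jun, Batf3, Fos and Fosl1 rose and Fosl2, Atf3 and Batf fell; Batf3 could enter the test only because it was high in TG with RA, and without it 3 members rose and 3 fell of 8. Over the 9 members the median log2 fold change was −0.08 in WT against 0.02 over all genes, −0.04 against 0.01 in KO and 0.44 against −0.02 in TG, the last being 0.06 without Batf3. The libraries with and without RA did not overlap for 5 of 9 members in WT, 4 of 9 in KO and 9 of 9 in TG, against 53.8%, 42.3% and 71.1% of all genes. The 2 members at an unadjusted p under 0.05 in KO were Fosl2 and Jun, beside 1280 of all 11922 genes. Limma voom on recovered reads also called 0 members there.

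**Figure D2:**
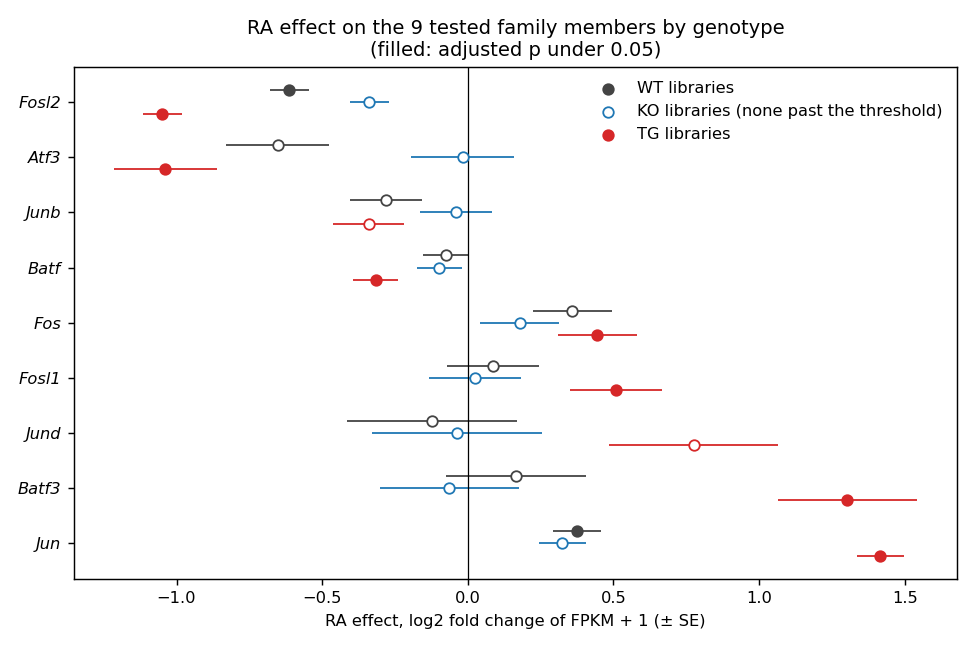
RA effect on the 9 tested members in WT, KO and TG libraries; points are log2 fold changes of FPKM + 1, bars are ± SE and filled points passed an adjusted p of 0.05. Jun and Fosl2 lie on opposite sides of 0 in each genotype and are farthest from it in TG, at 1.42 and −1.05.

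Jun (chr4:95049034-95052222, minus strand of GRCm38), a gene without introns of 3189 bp, encodes c-Jun, the subunit activated by JNK. It was 21.3 and 21.8 FPKM in untreated WT and 30.2 and 26.5 with RA. Under the KO label it was 26.6 and 24.6 without RA and 31.5 and 33.2 with RA. In TG it was 20.7 and 18.0 without RA and 53.4 and 52.9 with RA. The libraries with RA were above those without in each genotype, and the pair of TG libraries with RA was above all others. By mean FPKM the ratio was 1.31 in WT, 1.26 in KO and 2.75 in TG. The log2 fold change was 0.38 ± 0.08 in WT (SE, limma adjusted p = 0.024), 0.32 ± 0.08 in KO (limma adjusted p = 0.21) and 1.42 ± 0.08 in TG (limma adjusted p = 4.3e-06). The RA effect was larger in TG than in WT by 1.04 ± 0.12 (limma adjusted p of the difference 0.0013), in a comparison that 7.48% of all genes passed. With RA, Jun was also higher in TG than in WT, by 0.89 ± 0.08 (limma adjusted p = 0.00032; 11.5% of genes passed, 6.84% higher and 4.64% lower in TG), while without RA the TG libraries were below those of WT with no call. The TG results kept their call in all alternatives run, 11 for each comparison and 15 for the difference. The rise in WT did not: leaving out WT 0 nM replicate 1 gave a limma adjusted p of 0.11, leaving out its replicate 2 gave 0.11 and leaving out WT 10 nM replicate 1 gave 0.13, and it was 0.055 with no filter on low values and 0.12 with only WT in the fit, in a range of 0.015 to 0.13 over 11 alternatives.

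Fosl2 (chr5:32135801-32157842, plus strand) encodes FRA-2, a FOS protein described as a regulator of Th17 genes. Its levels were 22.2 and 23.7 FPKM in untreated WT and 13.9 and 15.5 with RA. In KO they were 16.1 and 16.1 without RA and 12.1 and 12.9 with RA. In TG they were 26.3 and 24.3 without RA and 11.5 and 11.96 with RA. RA libraries were below their controls in each genotype, and KO without RA lay below WT without RA. Mean FPKM with RA was 0.640 of that without in WT, 0.778 in KO and 0.463 in TG. The log2 fold change was −0.61 ± 0.07 in WT (SE, limma adjusted p = 0.0013), −0.34 ± 0.07 in KO (limma adjusted p = 0.12) and −1.05 ± 0.07 in TG (limma adjusted p = 8.3e-06). The fall was larger in TG than in WT by −0.44 ± 0.09 (limma adjusted p = 0.027), whereas the difference between KO and WT, 0.27 ± 0.09, did not pass (limma adjusted p = 0.75). The call in WT was lost in 1 of 11 alternatives, in a fit of the WT libraries alone (limma adjusted p = 0.061, range 0.00057 to 0.061). That of the difference between TG and WT was lost in 7 of 15, with a limma adjusted p of 0.020 to 0.10; 6 of these left out a library, namely WT 0 nM replicates 1 and 2, WT 10 nM replicate 2, TG 0 nM replicate 1 and TG 10 nM replicates 1 and 2, with 0.054 to 0.10.

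Fosl2 was also the 1 member that differed between KO and WT. Without RA it was lower in KO by −0.49 ± 0.07 on the log2 scale (SE, limma adjusted p = 0.013; 1.74% of all genes passed), to 0.701 of the WT mean FPKM. The sexes were split the same way as these genotypes; with a term for sex, which only the TG libraries inform, the difference was −0.46 ± 0.10 and the limma adjusted p 0.14. It was 0.11 with only these groups in the fit, and 0.11 without WT 0 nM replicate 2, 0.10 without KO 0 nM replicate 1 and 0.076 without KO 0 nM replicate 2, in a range of 0.0065 to 0.14. With RA the difference was −0.21 ± 0.07 (limma adjusted p = 0.27). There 0 of 9 members passed in limma, where 0.881% of all genes passed, and voom called 0. In limma 1 of 9, Fosl2, had an unadjusted p under 0.05, as did 1320 of all 11922 genes. Between TG and WT with RA, Fosl2 was lower in TG by −0.30 ± 0.07 (limma adjusted p = 0.022), with no call after a term for sex, which gave −0.29 ± 0.08 (0.068), with only these groups in the fit (0.13), or without WT 10 nM replicate 2 (0.13), TG 10 nM replicate 1 (0.13) or TG 10 nM replicate 2 (0.085), in a range of 0.017 to 0.13.

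Because Jun and Fosl2 went opposite ways, their ratio spread farther than either level. Jun FPKM over Fosl2 FPKM was 0.922 to 0.961 in WT without RA and 1.71 to 2.18 with RA. It was 1.53 to 1.66 and 2.56 to 2.60 in KO, and 0.737 to 0.789 and 4.42 to 4.66 in TG, without and with RA. The ratio in KO without RA thus lay between the WT groups, and no group overlapped another.

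**Figure D3:**
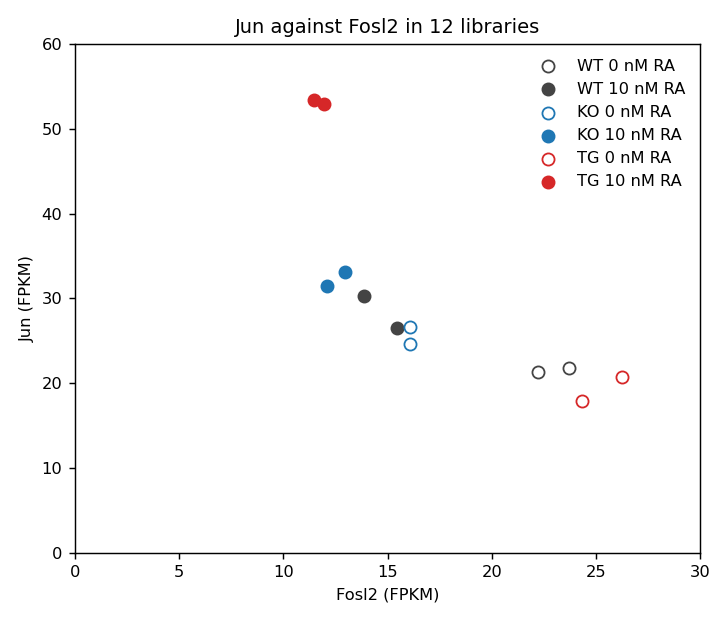
Jun against Fosl2, both in FPKM on linear axes from 0, in the 12 libraries; colour gives the genotype and filled points had 10 nM RA. The TG libraries lie at both ends. Without RA, Fosl2 is at 24.3 to 26.3 and Jun at 18.0 to 20.7 FPKM. With RA they are at 11.5 to 11.96 and 52.9 to 53.4.

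Atf3 (chr1:191170296-191218039, minus strand) encodes a stress-induced factor that pairs with JUN proteins and often represses. It was 1.97 and 2.59 FPKM in untreated WT and 0.848 and 1.34 with RA. In KO it was 0.939 and 1.33 without RA and 1.18 and 1.02 with RA. In TG it was 3.34 and 4.76 without RA and 1.41 and 1.46 with RA. The TG libraries without RA were the highest of all, those of WT without RA came next, and KO showed no separation by RA. These values rest on 31 to 262 reads a library. RA lowered Atf3 in TG by −1.04 ± 0.18 (SE, limma adjusted p = 0.0019), to 0.354 of the mean FPKM, and that call was kept in all 11 alternatives. In WT the mean with RA was 0.479 of that without, a log2 difference of −0.65 ± 0.18 that just missed the threshold (limma adjusted p = 0.053, range 0.019 to 0.27). Without RA, the difference was −0.62 ± 0.18 for KO against WT (limma adjusted p = 0.14) and 0.61 ± 0.18 for TG against WT (limma adjusted p = 0.10). The RA effect did not differ past the threshold between KO and WT (0.64 ± 0.25, limma adjusted p = 0.85) or TG and WT (−0.39 ± 0.25, limma adjusted p = 0.43).

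Batf3 (chr1:191097847-191108945, plus strand) lies 61.35 kb from Atf3, with 1 protein-coding gene, Fam71a, between them, which was listed at 0 throughout. BATF3 is known for the development of cross-presenting dendritic cells and can stand in for BATF. Batf3 was 0.333 and 0.318 FPKM in untreated WT and 0.221 and 0.807 with RA. In KO it was 0.181 and 0.608 without RA and 0.139 and 0.528 with RA, and in TG 0.571 and 0.981 without RA and 3.17 and 3.55 with RA. The TG libraries with RA, at 85 and 144 reads, stood above all others, which had 4 to 40 reads, and in 5 of 6 groups replicate 2 was the higher. Mean FPKM rose 4.33 times with RA in TG, a log2 difference of 1.30 ± 0.24 (SE, limma adjusted p = 0.0029). With RA it was 6.53 times as high in TG as in WT, 1.55 ± 0.24 on the log2 scale (limma adjusted p = 0.0045). Since Batf3 passed the filter only through the high TG libraries with RA, these p-values depend on the values they test. A fit over all 25908 genes above 0 does not select on level. There the limma adjusted p was 0.0080 for RA in TG and 0.012 for TG against WT with RA. Over 9 alternatives the limma adjusted p ranged over 0.00042 to 0.038 and 0.00077 to 0.049. Of these 9 only that fit dropped the filter, so the ends of both ranges come from filtered fits. Without either TG library with RA, Batf3 fell below the filter and no value was obtained. The RA effect was larger in TG than in WT by 1.14 ± 0.34, which did not pass (limma adjusted p = 0.087). Batf3 and Atf3, though neighbours, thus differed in opposite directions with RA in TG.

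Because Batf3 is a dendritic cell gene, markers of other cells are given beside it. In bulk RNA, more cells of a type and more RNA per cell cannot be told apart. The 9 dendritic cell and class II markers summed to 27.5 to 43.9 FPKM in TG without RA and 32.2 to 43.0 with RA, and replicate 2 had the higher sum in every group. The sums in replicates 1 and 2 were 23.7 and 157 in untreated WT, where Batf3 was 0.333 and 0.318 FPKM, and 26.1 and 165 in WT with RA, where it was 0.221 and 0.807. In KO they were 26.5 and 73.2 without RA, beside Batf3 at 0.181 and 0.608, and 25.6 and 78.3 with RA, beside 0.139 and 0.528. In 5 of 6 groups the library with the higher sum thus also had the higher Batf3, whereas the TG libraries with RA had the highest Batf3 and sums below those of replicate 2 in WT and KO. With RA in TG, 2 of the 9 were higher in both libraries and 2 lower, and of 5 tested 1 rose. The dendritic cell markers Xcr1 and Zbtb46 were at most 0.132 and 0.206 FPKM in any library, and Clec9a was listed at 0 in all but 1, TG with RA replicate 2, at 0.0119. Itgax was 0.0317 and 0.139 FPKM in untreated TG and 1.20 and 1.76 with RA. The 10 B cell markers summed to 31.3 to 33.7 FPKM in TG without RA and 107 to 109 with RA; 5 of 10 were higher in both libraries with RA and 1 lower, and of 8 tested 1 rose. Most of that sum was Ighm, at 27.5 and 27.6 FPKM in untreated cells and 101 and 95.9 with RA. The part of such cells in the Batf3 values was not tested.

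Batf (chr12:85686669-85709087, plus strand) was among the highest members in every library. It was 123 and 123 FPKM in untreated WT and 109 and 125 with RA, and 119 and 106 in KO without RA and 105 and 105 with RA. In TG it was 135 and 142 without RA and 114 and 107 with RA. Groups with and without RA overlapped in WT but not in KO or TG, where Batf with RA was 0.932 and 0.802 of its level without. The difference in TG was −0.32 ± 0.08 on the log2 scale (SE, limma adjusted p = 0.012), against −0.08 ± 0.08 in WT (limma adjusted p = 0.60, 95% interval −0.25 to 0.10) and −0.10 ± 0.08 in KO (limma adjusted p = 0.72, interval −0.28 to 0.08). The difference between TG and WT, −0.24 ± 0.11, did not pass (limma adjusted p = 0.25). The fall in TG lost its call without TG 0 nM replicate 2 or TG 10 nM replicate 2, with limma adjusted p of 0.0076 to 0.078 over 11 alternatives.

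Fos (chr12:85473890-85477273, plus strand), the best known immediate early gene, lies 209 kb before Batf on the same strand, with Jdp2 between. It was 2.00 and 2.35 FPKM in untreated WT and 2.83 and 3.31 with RA, 2.90 and 2.48 in KO without RA and 3.25 and 3.08 with RA, and 2.31 and 1.68 in TG without RA and 3.44 and 2.69 with RA. Libraries with RA were above those without in each genotype, a separation in the higher direction that 31.0%, 24.1% and 33.5% of all genes showed in WT, KO and TG. The log2 difference was 0.36 ± 0.14 in WT (SE, limma adjusted p = 0.14), 0.18 ± 0.14 in KO (limma adjusted p = 0.71) and 0.44 ± 0.14 in TG (limma adjusted p = 0.030). The call in TG was lost without TG 0 nM replicate 2 or TG 10 nM replicate 1, with no filter (0.075) and with only the TG libraries in the fit, in a range of 0.011 to 0.19.

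Fosl1 (chr19:5447547-5455946, plus strand) encodes FRA-1, a FOS protein that, like FRA-2, lacks the strong activation domain of FOS. Its levels in WT were 6.52 and 8.10 FPKM untreated and 6.59 and 9.17 with RA, and in KO all 4 libraries were between 8.43 and 9.61. In TG they were 4.57 and 5.69 without RA, the lowest of the series, and 8.23 and 7.17 with RA. RA raised it in TG by 0.51 ± 0.16 on the log2 scale (SE, limma adjusted p = 0.032), to within the WT range, and the difference of this effect from that in WT was 0.42 ± 0.22 (limma adjusted p = 0.32). Without RA, TG stood below WT by −0.44 ± 0.16 (limma adjusted p = 0.18). The call in TG was lost with no filter and without TG 0 nM replicate 1, TG 10 nM replicate 1 or TG 10 nM replicate 2, in a range of 0.031 to 0.16.

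Fosb (chr7:19302696-19310051, minus strand), another immediate early FOS gene, had the lowest mean of the 10 members in every group but KO with RA, where Batf3 was lower. It was 0.227 and 0.244 FPKM in untreated WT and 0.302 and 0.423 with RA, 0.259 and 0.156 in KO without RA and 0.399 and 0.378 with RA, and 0.0730 and 0.144 in TG without RA and 0.801 and 0.655 with RA. In TG these were 9 and 23 reads in the untreated libraries and 84 and 104 with RA. The TG groups were the lowest and the highest of the 6. In a fit without the filter, added after the data were seen, Fosb rose with RA in TG by 0.64 ± 0.07 (SE, limma adjusted p = 0.00063), 6.70 times by mean FPKM, and the call was kept in all 9 alternatives. In that fit it was higher in TG than in WT with RA by 0.34 ± 0.07 (limma adjusted p = 0.034), called in 3 of 9 alternatives, and its RA effect was larger in TG than in WT by 0.50 ± 0.10 (limma adjusted p = 0.041), called in 4 of 13.

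Junb (chr8:84974484-84978718, minus strand) and Jund (chr8:70698949-70700616, plus strand) are the other JUN genes, and Jund had the largest SE of the 9 tested members. Junb was 186 and 161 FPKM in untreated WT and 160 and 127 with RA, 167 and 177 in KO without RA and 153 and 182 with RA, and 180 and 183 in TG without RA and 137 and 149 with RA. Jund, a broadly expressed JUN, was 44.5 and 32.0 FPKM in untreated WT and 44.3 and 26.9 with RA, 37.2 and 50.2 in KO without RA and 33.2 and 53.4 with RA, and 37.3 and 38.3 in TG without RA and 59.1 and 72.5 with RA. Both were higher in replicate 1 of WT and in replicate 2 of KO at each dose. In TG the RA groups did not overlap: Junb differed by −0.34 ± 0.12 (SE, limma adjusted p = 0.057, range 0.023 to 0.23) and Jund by 0.78 ± 0.29 (limma adjusted p = 0.064, range 0.011 to 0.24). In WT the difference in Junb was −0.28 ± 0.12 (limma adjusted p = 0.19). With RA, Jund was higher in TG than in WT by 0.90 ± 0.29 (limma adjusted p = 0.087), and its RA effect was larger in TG by 0.90 ± 0.41 (limma adjusted p = 0.25). Voom on recovered reads called both the fall in Junb (limma voom adjusted p = 0.042) and the rise in Jund (0.033) with RA in TG.

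As shares of the summed JUN family FPKM, the 3 subunits differed most between the TG groups. Junb made up 75.6 to 76.4% in TG without RA and 54.3 to 54.9% with RA. Jun made up 7.52 to 8.71% and then 19.3 to 21.4%, and Jund 15.7 to 16.0% and then 23.7 to 26.4%. In WT the share of Jun was 8.48 to 10.2% without RA and 12.9 to 14.7% with RA, and in KO 9.77 to 11.5% and 12.3 to 14.4%. Fosl2 made up 76.4 to 79.1% of summed FOS family FPKM in TG without RA and 47.9 to 53.2% with RA, against 68.9 to 71.8% and 54.5 to 58.8% in WT. The sum over all 10 members moved less, between 336 and 418 FPKM over the 12 libraries.

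**Figure D4:**
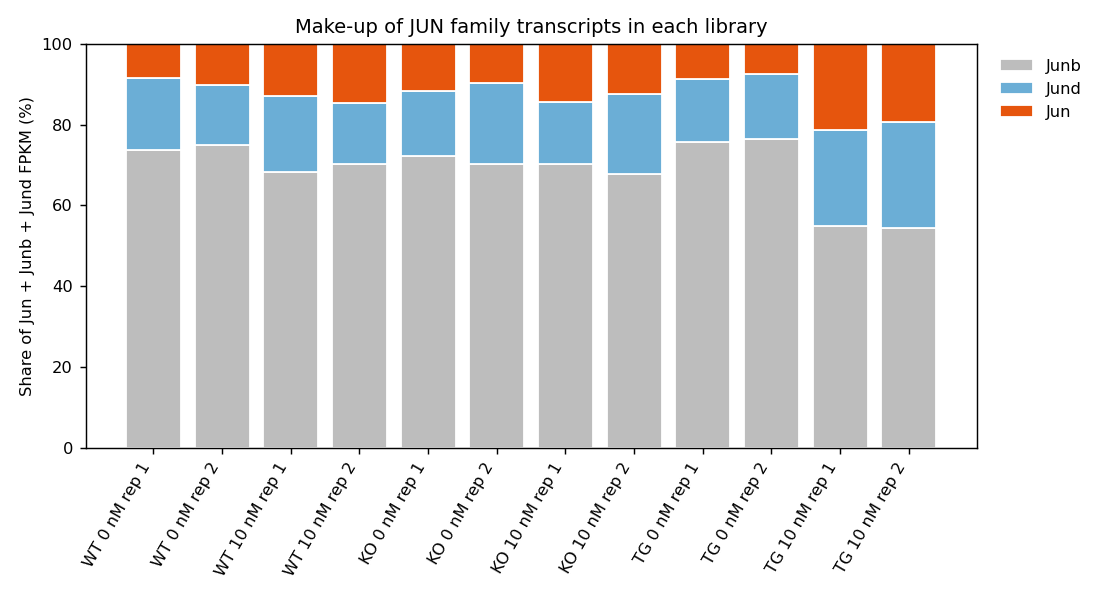
Share of Junb, Jund and Jun in the summed FPKM of the 3 genes, in percent from 0 to 100, in each of the 12 libraries. Jun makes up 19.3 to 21.4% in TG with RA, against at most 14.7% in any other library.

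Without RA, 0 of the 9 members passed between TG and WT in limma (4.31% of all genes did), and voom called 0. In limma 2 of 9, Fosl1 and Atf3, had an unadjusted p under 0.05, as did 2238 of all 11922 genes. The values there were 0.14 ± 0.07 for Fosl2 (SE, limma adjusted p = 0.32) and 0.41 ± 0.24 for Batf3 (limma adjusted p = 0.41). With RA, 3 of 9 passed between TG and WT, Jun and Batf3 upward and Fosl2 downward, as given above. Of all genes, 11.5% passed there, 6.84% higher and 4.64% lower in TG. Without Batf3, which was tested only because it was high in TG with RA, 2 of 8 passed. Between KO and WT, Jun differed by 0.24 ± 0.08 without RA (limma adjusted p = 0.22) and by 0.18 ± 0.08 with RA (limma adjusted p = 0.45). The RA effect differed past the threshold between KO and WT for 0 of 9 members in limma and in voom, with 0.00839% of all genes called in limma. Fosl2 and Atf3 had an unadjusted p under 0.05 in limma, as did 640 of all 11922 genes.

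Other genes around the family are given from lists chosen by role. Of 7 partners that bind composite sites with AP-1 or BATF, 4 rose and 1 fell with RA in TG, where 19.7% of all genes rose and 19.4% fell. Irf8, the BATF partner expressed in B and dendritic cells as well as activated T cells, rose most, by 4.86 ± 0.19 (SE, limma adjusted p = 6.4e-07), from a mean of 4.72 to 165 FPKM, followed by Runx1 at 2.13 and Nfatc1 at 1.04. In WT, 3 of the 7 rose and 1 fell, against 6.67% and 3.47% of all genes, with Irf8 at 1.45, Runx1 at 1.06 and Irf4, the partner best known for Th17 cells, at −0.38. Without RA, 3 of the 7 were lower in TG than in WT, in a comparison that 4.31% of all genes passed, among them Irf8 at −1.84. The B cell marker sum given beside Batf3 was also higher with RA in TG, and its part in Irf8 was not tested.

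Of 15 tested genes described as BATF or AP-1 targets in CD4 T cells, 10 fell and 3 rose with RA in TG and 6 fell and 2 rose in WT, with median log2 fold changes of −1.21 and −0.43 against −0.02 and 0.02 over all genes. Of all genes tested, 19.4% fell and 19.7% rose in TG and 3.47% fell and 6.67% rose in WT. In TG the furthest were Il9 at −6.33, the Th17 cytokine Il17f at −6.29 and the costimulatory receptor Icos at −3.89; in WT they were Il9 at −4.29, Il10 at −2.28 and Il17f at −2.06. Mean Il17f was 348 FPKM in TG without RA and 3.47 with RA, and 483 and 115 in WT. In KO against WT without RA, Il21 at −0.58, Ctla4 at −0.59 and Cd69 at 0.64 passed, as 1.74% of all genes did.

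Among 19 other bZIP factors tested, 4 rose and 4 fell with RA in TG and 1 rose and 2 fell in WT. Of all genes tested, 19.7% rose and 19.4% fell in TG and 6.67% rose and 3.47% fell in WT. Crem, whose products bind cyclic AMP response elements, fell by 2.10 on the log2 scale in TG and by 0.82 in WT. Nfil3, a repressor with roles in Th17 cells, fell by 2.00 and 0.85, while Cebpb rose by 1.89 in TG. Crem and Nfil3 were, like Atf3 by its values, higher in TG than in WT without RA, by 0.77 and 0.79, and both passed (limma adjusted p = 0.0048 and 0.0056).

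Upstream, 7 of 28 genes of the MAP kinase and PKC-theta routes rose and 6 fell with RA in TG, and 2 rose and 2 fell in WT. Over all genes the shares were 19.7% up and 19.4% down in TG, and 6.67% and 3.47% in WT. Rasgrp1, which activates RAS below the T cell receptor, rose by 1.60 in TG and 0.67 in WT, and Elk1, a MAP kinase target that acts at immediate early promoters, by 1.32 and 0.65. Mapk8, which encodes the JUN kinase JNK1, had a larger RA effect in TG than in WT, by 0.49 ± 0.10 (SE, limma adjusted p = 0.024). It was among 3 of the 28 that passed in this comparison, as 7.48% of all genes did. Of 6 genes that act on the turnover of FOS and JUN transcripts or proteins, 1 rose and 3 fell with RA in TG and 0 passed in WT. Among all genes, 39.1% changed with RA in TG and 10.1% in WT. Those that fell were Zfp36l1 at −0.71 and Zfp36l2 at −0.68, which destabilise AU-rich transcripts, and Fbxw7 at −0.44, a ubiquitin ligase subunit that acts on JUN.

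Of 10 other immediate early genes, 2 rose and 4 fell in TG and 1 rose and 1 fell in WT; Egr2 rose by 1.03 and 0.69, and Ier5 was −0.86 and −0.38. Of 4 inducible heat shock genes tested, 3 fell in TG and 2 in WT, the furthest being Hsp90aa1 at −0.56 and −0.34. For both lists the shares over all genes were 19.7% up and 19.4% down in TG, and 6.67% and 3.47% in WT. In the libraries labelled KO, 0 genes of these 7 lists passed with RA in limma, where 0.143% of all genes did. Read against 39.1% of all genes changed with RA in TG, the counts of the MAP kinase and bZIP lists were near that share.

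The genes whose levels followed a member most closely over the 12 libraries were found among 994 genes with a similar range, as a description. Closest to Jun were Plin2 (Pearson r = 0.985), a lipid droplet protein, Pacsin1 (0.985) and Podnl1 (0.980). Closest to Fosl2 were Entpd1 (r = 0.983), which encodes the ectonucleotidase CD39, Map3k20 (0.976) and Frmd4b (0.976). For Atf3 they were Dennd5a (r = 0.963), Nfkbiz (0.960), which encodes a nuclear IκB protein with roles in Th17 cells, and Myo1g (0.955), and for Batf3 Map1lc3a (r = 0.976), Gcnt2 (0.971) and Vash1 (0.965). Libraries of a group share genotype and treatment, so these values mainly follow 6 groups.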

How the data were processed

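RNA-seq of 12 libraries, 2 in each of 6 groups, was analysed from the deposited FPKM table made by the authors. Per the submitters' processing notes the tools were Trimmomatic 0.32, STAR, HTSeq 0.6.1 and DESeq2 with builds GRCm38.p5 and mm10; neither the annotation release nor whether counting used strand is given in the sources used here, so reads of overlapping or antisense genes cannot be told apart. Libraries were stranded, with single reads of 100 bp, per the labels' protocols. Depth was recovered from the step that 1 read makes in FPKM times exon length (GENCODE M21). Of values of up to 20 reads, 95.3 to 95.9% were within 0.02 of a whole number. Recovered reads summed over genes to 1.062 to 1.066 times that depth. The depth is thus an inferred scaling of FPKM, not a measured count of reads. Read numbers bear on counting error only, since reads are not independent molecules; the 95% intervals are those of limma and rest on the spread between libraries.

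The 11922 genes that reached an FPKM of 1 in 2 or more libraries were tested with limma 3.58.1 (R 4.3.3; lmFit, eBayes with trend) on log2(FPKM + 1), with 6 group means, 9 comparisons and Benjamini-Hochberg adjustment over all tested genes; p-values are two-sided and the threshold is 0.05. Fold changes on this scale understate the change of low genes. WT libraries are shared by KO and TG comparisons. The members and gene lists were chosen with earlier results of these data known. The text names all 10 members, Rara, up to 3 called genes of each list with the largest change, and 3 genes most like each member with a range of at least 1. The 7 lists were other bZIP factors, composite-site partners, MAP kinase routes, FOS and JUN turnover, BATF or AP-1 targets, other immediate early genes and heat shock genes. Alternatives were a pseudocount of 0.1, no filter, upper-quartile scaling, only the libraries compared, a replicate block, a sex term, limma voom on recovered reads and leaving out each library; the fits for Fosb were added after seeing the data. Code was tested on simulated data. Promoters came from RefSeq (GRCm38.p6), which matched 9 of 10 members.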

Additional observations from a re-analysis of the deposited data

Results flagged for a closer look

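The effect of RA was tested for a difference between TG and WT cells. Of 9 members tested, 2 passed, Jun and Fosl2, as did 7.48% of all genes. Fosb, which was below the filter, passed only in a separate fit added after the data were seen. The rise in Jun was larger in TG by 1.04 on the log2(FPKM + 1) scale, and the fall in Fosl2 was larger in TG by −0.44. In the fit without the filter on low values, the rise in Fosb was larger in TG by 0.50, from libraries with 9 to 104 reads. Jun was called in all 15 alternatives, Fosl2 in 8 of 15 and Fosb in 4 of 13.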

How the results depend on the processing

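Values under the alternatives were tallied for chosen pairs of a member and a comparison, not for all pairs. In this tally 462 kept their direction and side of the threshold, 48 lost a call, 12 gained one and 1 changed sign. Pairs outside the tally, such as Atf3 with RA in KO, may also change sign. That 1 was Batf with RA in WT, not called, which ran from −0.18 to 0.03 when a library was left out and was 0.026 without WT 10 nM replicate 1. In the main fit 1209 genes were called for RA in WT, 17 in KO, 4662 in TG, 207 for KO and 514 for TG against WT without RA, 105 and 1369 with RA, and 1 and 892 for the differences of the RA effect of KO and TG from WT. With only the libraries compared these were 142 for WT with against without RA, 0 for KO (limma; 1280 at an unadjusted p under 0.05 in the main fit), 26 and 14 for KO against WT without and with RA, and 47 and 422 for TG against WT. Without a filter RA in KO gave 30 and its difference from WT 21. The sex term gave 35 and 28 for KO against WT without and with RA, 200 for TG against WT without RA and 3 for the difference between KO and WT, which was 0 with a pseudocount of 0.1 and 0 with limma voom (640 at an unadjusted p under 0.05). Leaving out 1 library gave 342 to 851 for RA in WT, 4 to 16 in KO, 3185 to 4049 in TG, 31 to 74 and 37 to 93 for KO against WT without and with RA, 120 to 199 and 499 to 1043 for TG against WT, and 0 to 3 and 397 to 716 for the differences of KO and TG. The cause was not tested; the fits with fewer libraries hold fewer samples. The labels do not say whether same-numbered libraries are paired, but some values followed the number at both doses. In TG, Xist was high in replicate 2 only, and in WT and KO the class II marker sums were higher in replicate 2. With 2 libraries a group, deviations of same-numbered libraries at both doses correlated over genes at 0.33 in WT, 0.32 in KO and 0.15 in TG. Between other groups this was 0.0035 to 0.21. The main fit had no term for pairing. The replicate block used the same term for all genotypes, so pairing within each genotype was not fitted. With the replicate block 73 genes were called for RA in KO, 479 and 174 for KO against WT without and with RA and 823 for TG against WT without RA, and Atf3 passed for RA in WT (limma adjusted p = 0.019), KO against WT (0.0499) and TG against WT (0.038) without RA, as did the larger RA effect on Batf3 in TG than in WT (0.018). Atf3 also passed for RA in WT with a pseudocount of 0.1 (0.048) and upper-quartile scaling (0.045). Below 40 reads, as for Batf3 and Fosb in most libraries, depth limits what can be seen.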
